A study of Homo sapiens with 18 samples.

Results

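Genes that encode proteases of the mitochondrion, or a subunit of one, were followed by RNAseq in SW620 cells, a human colon cancer line. There were 10 of them: LONP1, CLPP, CLPX, YME1L1, AFG3L2, SPG7, HTRA2, OMA1, PARL and PITRM1. The rule lists them by name, as LONP1 and other main proteases of mitochondrial quality control, and uses no measured value, although it was written with earlier results of these data known. All 10 were among the 26485 gene symbols of the count table, and all 10 passed the filter on low counts, as did 12832 symbols in all. One arm of the cells received a scramble siRNA and the other an siRNA that targets Lonp1 (siLonp1). In each arm there were unheated cells at 37 °C (Ctrl), cells after 1 h at 42 °C (HS), and cells that had 1 h of recovery at 37 °C after the same heat (HS+REC), which gave 6 groups with 3 libraries each. The methods name a pair of siRNAs against Lonp1 and do not say whether the libraries came from one of them or from both. siRNA lowers a transcript without removing the gene, and protein was not measured in these files. The comparisons asked whether the loss of LONP1 was met by a change of the other proteases, with and without heat.

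Mitochondria break down proteins in several compartments. In the matrix, the LONP1 and ClpXP proteases use ATP to unfold and cut damaged or surplus proteins. In the inner membrane, YME1L1 works towards the intermembrane space and the AFG3L2-SPG7 complex towards the matrix, while OMA1 and PARL cut selected proteins at defined sites. HTRA2 acts in the intermembrane space, and PITRM1 clears the targeting peptides that are cut off imported proteins.

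Total counts per library ran from 30815860 to 47279297, with the lowest total in replicate 3 of HS scramble. Of 10 epithelial marker genes, EPCAM stood between 332.0 and 455.7 CPM (counts scaled to the library size) over the 18 libraries and KRT8 between 4418 and 6397, whereas CDX1 had no count in any library and KRT20 was at 1.25 CPM or below. Of 9 epithelial genes tested, siLonp1 raised 3 and lowered 2 at 37 °C (26.3% and 22.9% of all genes), 6 and 2 in HS (28.1% and 26.7%), and 2 and 3 in HS+REC (26.8% and 27.3%). CDH17 and CDX2 fell by 3.12 (log2, adjusted p = 2.88e-14) and 0.90 (adjusted p = 2.11e-08) at 37 °C and CDH1 rose by 0.62 (adjusted p = 1.07e-08), and the part of these shifts in the results below was not tested. Of 10 genes that mark immune, stromal and endothelial cells, 3 passed the filter. Their 10 levels summed to between 24.7 and 37.9 CPM in scramble libraries and to between 11.8 and 15.6 in siLonp1 libraries. Most of that sum was LUM, an extracellular matrix proteoglycan, at 33.8 ± 2.14 CPM in Ctrl scramble and 12.0 ± 1.33 in Ctrl siLonp1 (SD, n = 3), and its part in the results below was not tested. HSPA1A, the inducible HSP70 gene, rose by 7.11 (log2) in HS scramble and by 6.90 in HS siLonp1 (adjusted p = 6.75e-23 and 1.02e-22). In RNA from a whole culture, fewer cells that express a gene and less RNA of it per cell cannot be told apart.

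LONP1 lies on the minus strand of chromosome 19 (hg38, chr19:5691834-5720572), on the same chromosome as CLPP (chr19:6361531-6370242, plus strand). RefSeq promoter entries, 250 bases before to 50 bases after a start (GRCh38.p14), matched 8 of the 10 genes by symbol. CLPP and YME1L1 had no entry. Because NRF1 is a textbook activator of nuclear genes for mitochondrial proteins, its core motif (GCGCA, any base, GCGC) was looked for on both strands. It matched in 4 of the 8 (LONP1, CLPX, SPG7 and OMA1), against 5.78% of all 35116 promoter entries and 6.98% of 27305 genes. The motifs were chosen after values of these genes had been seen, and a match is a description of letters only. A heat shock element (GAA, NN, TTC, NN, GAA in a row) matched in 0 of the 8 and in 0.49% of all entries, and the amino acid response motif TGATGNAA matched in 0 of the 8 and in 3.62%. The following stretches of 120 bases are shown 5′ to 3′ on the strand of each gene because they hold those matches, which are in capitals:
LONP1, chr19:5720583-5720702, minus strand: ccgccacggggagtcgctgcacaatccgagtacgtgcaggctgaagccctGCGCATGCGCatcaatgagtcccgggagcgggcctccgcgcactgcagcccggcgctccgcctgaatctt
CLPX, chr15:65185343-65185462, minus strand: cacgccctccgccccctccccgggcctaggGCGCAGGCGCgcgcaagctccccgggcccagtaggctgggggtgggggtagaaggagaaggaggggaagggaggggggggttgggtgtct
SPG7, chr16:89508268-89508387, plus strand: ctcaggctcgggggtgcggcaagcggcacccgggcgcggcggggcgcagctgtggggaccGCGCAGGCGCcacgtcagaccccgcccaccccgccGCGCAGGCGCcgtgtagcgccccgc
OMA1, chr1:58546727-58546846, minus strand: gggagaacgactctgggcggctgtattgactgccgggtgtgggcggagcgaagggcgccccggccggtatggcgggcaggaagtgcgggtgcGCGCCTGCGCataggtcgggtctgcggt

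Levels of different genes were compared as CPM per kb of the canonical transcript. In Ctrl scramble, LONP1 was the highest of the 10 at 71.4 ± 1.80 CPM per kb (SD, n = 3), ahead of YME1L1 at 57.2 ± 1.26, PARL at 33.8 ± 0.563, AFG3L2 at 28.8 ± 0.462 and CLPP at 19.98 ± 0.871. SPG7 (13.8 ± 0.243), HTRA2 (13.5 ± 0.313), PITRM1 (12.9 ± 0.169), CLPX (11.9 ± 0.169) and OMA1 (7.16 ± 0.266) followed. The ranges of SPG7 and HTRA2 overlapped, whereas all other neighbours in that order were apart in the 3 libraries. In Ctrl siLonp1, YME1L1 was first at 55.8 ± 2.10 CPM per kb, and LONP1 was ninth at 6.61 ± 0.567, above OMA1 at 4.37 ± 0.380. In HS siLonp1 LONP1 was last at 3.79 ± 0.0497, within the range of OMA1 (3.68 to 4.81). In HS+REC siLonp1 it was ninth at 8.79 ± 0.531, and its range overlapped that of SPG7 just above it (8.67 to 9.72).

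**Figure D1:**
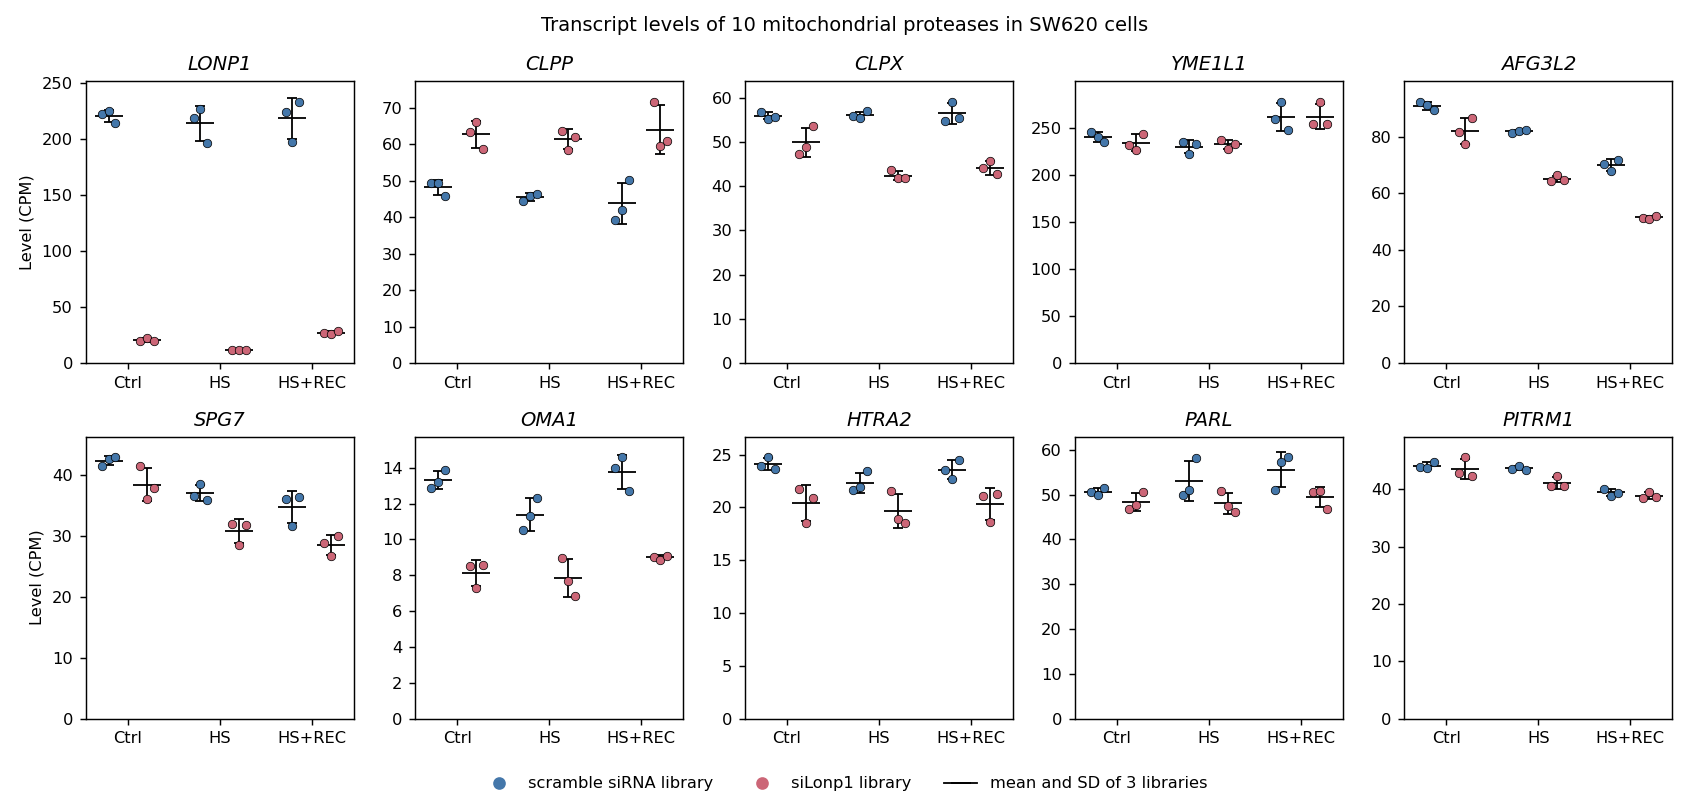
Level in CPM (y axis from 0) of each of the 10 genes in Ctrl, HS and HS+REC. Each point is 1 library, blue for scramble siRNA and red for siLonp1, and black lines give the mean and SD of 3 libraries. LONP1 falls to between 11.5 and 28.9 CPM under siLonp1, CLPP lies higher and OMA1 lower in siLonp1 libraries of every condition, and AFG3L2 steps down from Ctrl to HS to HS+REC in both arms.

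LONP1, the target of the siRNA, was at 222.6, 225.2 and 214.5 CPM in Ctrl scramble and at 19.4, 22.5 and 19.5 CPM in Ctrl siLonp1. In HS the 3 siLonp1 libraries held 11.8, 11.5 and 11.8 CPM, and in HS+REC they held 27.1, 25.6 and 28.9 CPM. The siLonp1 libraries were thus far below every scramble library and fell into 3 ranges that did not overlap, lowest in HS and highest in HS+REC. What remained of the scramble level was 9.26% at 37 °C, 5.48% in HS and 12.4% in HS+REC. The siLonp1 effect was -3.43 (log2, SE 0.08, adjusted p = 1.74e-19) at 37 °C, -4.19 (SE 0.08, adjusted p = 6.38e-21) in HS and -3.01 (SE 0.08, adjusted p = 1.95e-18) in HS+REC.

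Heat did not move LONP1 detectably in scramble cells, with a difference of -0.04 (log2, 95% interval -0.19 to 0.10) in HS and -0.02 (-0.16 to 0.13) in HS+REC. In siLonp1 cells the remaining transcript fell by 0.80 (log2, SE 0.08, adjusted p = 2.5e-08) in HS and then rose by 1.21 (SE 0.08, adjusted p = 4.91e-11) from HS to HS+REC. It ended 0.41 above its Ctrl level (SE 0.08, adjusted p = 9.24e-05). The difference between arms was itself tested. It was -0.76 (SE 0.11, adjusted p = 0.000468) for HS, 1.18 (SE 0.11, adjusted p = 1.18e-06) for the step from HS to HS+REC and 0.43 (SE 0.10, adjusted p = 0.0321) for HS+REC. The last of these passed the limit narrowly: leaving out any of 9 single libraries gave an adjusted p between 0.0519 and 0.113, with values from 0.36 to 0.45. The terminal exons of LONP1 and of RPL36, a ribosomal protein gene on the opposite strand, share 42 bases in the annotation. RPL36 stood at 446.0 ± 10.2 CPM in Ctrl scramble and 464.4 ± 10.0 in Ctrl siLonp1 (SD, n = 3), and the strand setting of the counting is not given in the sources used here.

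The other 9 proteases did not rise together when LONP1 was lost. At 37 °C, 1 of the 9 rose (CLPP) and 4 fell (CLPX, AFG3L2, HTRA2 and OMA1), while SPG7, YME1L1, PARL and PITRM1 did not pass the limit. Among all genes tested, siLonp1 raised 26.3% and lowered 22.9% at 37 °C. In HS 1 rose and 5 fell, SPG7 in addition, against 28.1% of all genes raised and 26.7% lowered. In HS+REC 1 rose and 6 fell, PARL in addition, against 26.8% raised and 27.3% lowered. Calls used an adjusted p of at most 0.05 at any size of change. None of the 9 passed that limit together with a difference above 2-fold, as 4.17% of all genes did at 37 °C, 4.17% in HS and 4.18% in HS+REC. The median difference of the 9 was -0.14 (log2) at 37 °C, -0.18 in HS and -0.21 in HS+REC, against 0.01, 0.00 and 0.00 over all genes. In size regardless of sign, the median was 0.15 at 37 °C against 0.21 for all genes, and 0.29 in HS+REC against 0.23.

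**Figure D2:**
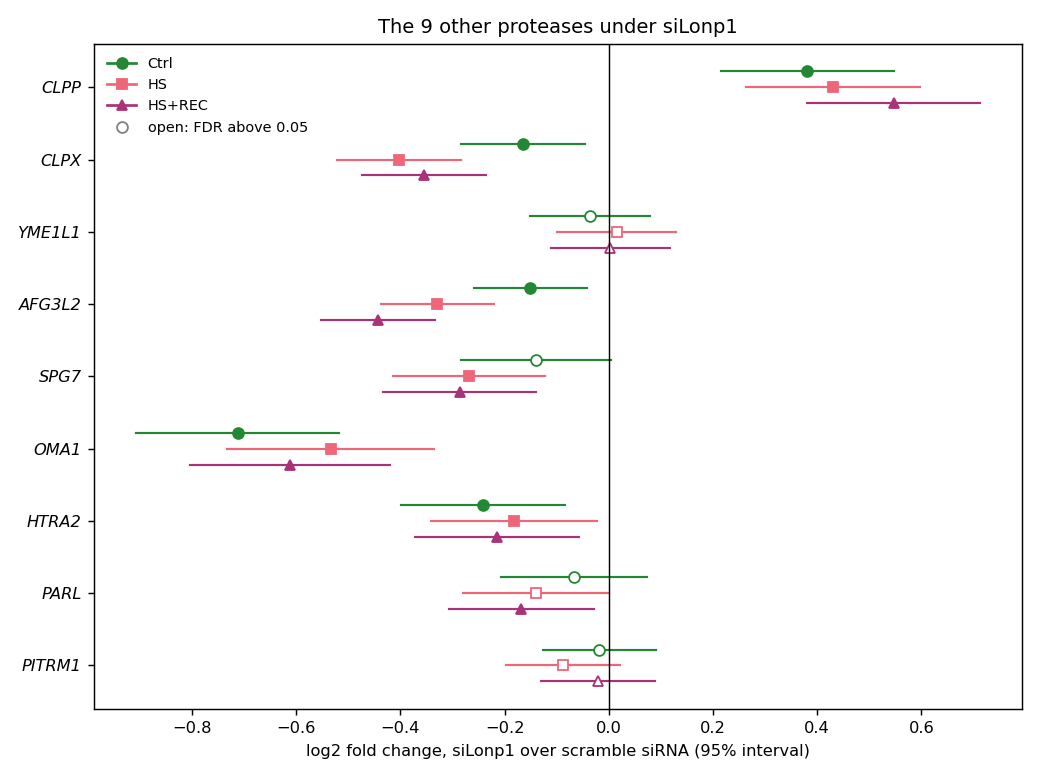
Difference of siLonp1 from scramble siRNA (log2 fold change, x axis) for the 9 other proteases in Ctrl (green circles), HS (red squares) and HS+REC (purple triangles). Bars are 95% intervals, and open symbols mark an adjusted p above 0.05. CLPP is right of 0 in all 3 conditions, OMA1 is farthest to the left, and YME1L1 and PITRM1 straddle 0 in all 3.

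The CLPP and CLPX transcripts, which encode the proteolytic chamber and the ATP-driven unfoldase of the same protease, moved in opposite directions. CLPP was at 49.4, 49.3 and 45.7 CPM in Ctrl scramble and at 63.3, 66.0 and 58.8 in Ctrl siLonp1. In HS it was at 44.5, 45.7 and 46.5 CPM with scramble siRNA and at 63.6, 58.3 and 62.1 with siLonp1. In HS+REC it was at 39.3, 41.9 and 50.04 CPM with scramble siRNA and at 71.6, 59.4 and 60.9 with siLonp1. Every siLonp1 library was above every scramble library, also across conditions. The difference was 0.38 (log2, SE 0.08, adjusted p = 0.000426) at 37 °C, 0.43 (SE 0.08, adjusted p = 0.000104) in HS and 0.55 (SE 0.08, adjusted p = 5.47e-06) in HS+REC, which is 1.302-fold, 1.348-fold and 1.461-fold. The growth of that difference with heat did not pass the test, at 0.05 (SE 0.11, adjusted p = 0.888) for HS and 0.17 (SE 0.11, adjusted p = 0.565) for HS+REC.

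CLPX was at 56.9, 55.3 and 55.7 CPM in Ctrl scramble and at 47.3, 49.0 and 53.6 in Ctrl siLonp1. In HS it was at 55.9, 55.5 and 57.0 CPM against 43.6, 41.9 and 41.8, and in HS+REC at 54.8, 59.1 and 55.5 against 44.1, 45.7 and 42.7. The siLonp1 libraries were below the scramble libraries in each condition, with the narrowest gap at 37 °C. The difference was -0.16 (log2, SE 0.06, adjusted p = 0.0204) at 37 °C, -0.40 (SE 0.06, adjusted p = 4.06e-06) in HS and -0.35 (SE 0.06, adjusted p = 1.85e-05) in HS+REC. At 37 °C the call was lost without replicate 1 of Ctrl scramble (-0.15, adjusted p = 0.0645) and without replicate 1 or 2 of Ctrl siLonp1 (-0.13 and -0.15, adjusted p = 0.112 and 0.069). The ratio of CLPP to CLPX in CPM per kb was 1.68 ± 0.0705 in Ctrl scramble, 1.58 ± 0.0274 in HS scramble and 1.51 ± 0.211 in HS+REC scramble (SD, n = 3). With siLonp1 it was 2.46 ± 0.276, 2.82 ± 0.0922 and 2.82 ± 0.320 in the same order, and the lowest siLonp1 library (2.14) was above the highest scramble library (1.76).

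OMA1, a metalloprotease that stress activates and that cuts OPA1 and DELE1, had the largest fall of the 9 in every condition. It was at 12.9, 13.2 and 13.9 CPM in Ctrl scramble and at 8.52, 7.31 and 8.56 in Ctrl siLonp1. In HS it was at 10.5, 11.3 and 12.3 CPM against 8.95, 7.71 and 6.85, and in HS+REC at 14.0, 14.6 and 12.7 against 9.04, 8.85 and 9.10. No siLonp1 library reached the lowest scramble library in any condition. The difference was -0.71 (log2, SE 0.09, adjusted p = 1.59e-06) at 37 °C, -0.53 (SE 0.10, adjusted p = 6.57e-05) in HS and -0.61 (SE 0.09, adjusted p = 8.2e-06) in HS+REC. YME1L1, the inner membrane protease that shares OPA1 as a substrate with OMA1, did not move with siLonp1. Its difference was -0.04 (95% interval -0.15 to 0.08) at 37 °C, 0.01 (-0.10 to 0.13) in HS and 0.00 (-0.11 to 0.12) in HS+REC, at 234.6 to 245.2 CPM in Ctrl scramble and 226.5 to 243.8 in Ctrl siLonp1. The ratio of YME1L1 to OMA1 in CPM per kb was thereby 8.01 ± 0.469 in Ctrl scramble and 12.8 ± 0.852 in Ctrl siLonp1 (SD, n = 3), and 8.44 ± 0.213 against 12.9 ± 0.861 in HS+REC.

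AFG3L2 and SPG7 encode the subunits of the matrix-facing inner membrane protease, and both were lower with siLonp1 in the heated groups. AFG3L2 was at 92.3, 91.2 and 89.4 CPM in Ctrl scramble and at 81.8, 77.4 and 86.7 in Ctrl siLonp1. In HS it was at 81.3, 82.1 and 82.2 CPM against 64.4, 66.4 and 64.8, and in HS+REC at 70.4, 67.8 and 71.7 against 51.3, 51.1 and 52.1. The arms did not overlap in any of the 3 conditions. The difference was -0.15 (log2, SE 0.05, adjusted p = 0.0202) at 37 °C, -0.33 (SE 0.05, adjusted p = 1.65e-05) in HS and -0.44 (SE 0.05, adjusted p = 3.11e-07) in HS+REC. At 37 °C leaving out replicate 1 or 2 of Ctrl scramble (-0.14 and -0.15, adjusted p = 0.0653 and 0.0525) or replicate 1 or 2 of Ctrl siLonp1 (-0.15 and -0.11, adjusted p = 0.051 and 0.123) ended the call. SPG7 was at 41.5, 42.6 and 42.9 CPM in Ctrl scramble and at 41.4, 36.1 and 37.8 in Ctrl siLonp1, where replicate 1 almost touched the scramble range. Its difference was -0.14 (SE 0.07, adjusted p = 0.102) at 37 °C, -0.27 (SE 0.07, adjusted p = 0.00274) in HS and -0.29 (SE 0.07, adjusted p = 0.00167) in HS+REC. Without replicate 1 of Ctrl siLonp1 the value at 37 °C was -0.20, with an adjusted p of 0.0413.

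HTRA2, a serine protease that is released from mitochondria in apoptosis, was at 23.9, 24.7 and 23.7 CPM in Ctrl scramble and at 21.8, 18.5 and 20.9 in Ctrl siLonp1. The difference was -0.24 (log2, SE 0.08, adjusted p = 0.0111) at 37 °C, -0.18 (SE 0.08, adjusted p = 0.0488) in HS and -0.21 (SE 0.08, adjusted p = 0.0206) in HS+REC. These calls were fragile. That at 37 °C was lost without replicate 2 of Ctrl siLonp1 (-0.18, adjusted p = 0.0862), that in HS without any of 10 single libraries (adjusted p from 0.054 to 0.184), and that in HS+REC without replicate 3 of HS+REC scramble or replicate 2 of HS+REC siLonp1 (-0.19 and -0.15, adjusted p = 0.0661 and 0.112). HTRA2 and LOXL3, a lysyl oxidase gene on the opposite strand, share 596 exonic bases in the annotation, and LOXL3 was lower than HTRA2, at 3.95 to 8.88 CPM over the 18 libraries. LOXL3 did not differ detectably at 37 °C (0.04, adjusted p = 0.793) and fell by 0.38 with siLonp1 in HS+REC (adjusted p = 0.0118).

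PARL, the rhomboid protease that cuts PINK1 and PGAM5, was at 51.1, 57.2 and 58.3 CPM in HS+REC scramble and at 50.6, 50.8 and 46.9 in HS+REC siLonp1, with a narrow gap between the arms. The difference was -0.17 (log2, SE 0.07, adjusted p = 0.0391) there, against -0.07 (adjusted p = 0.434) at 37 °C and -0.14 (adjusted p = 0.0838) in HS. The call in HS+REC was lost without replicate 2 or 3 of HS+REC scramble or replicate 3 of HS+REC siLonp1 (-0.15, -0.13 and -0.13, adjusted p from 0.108 to 0.152). PITRM1 differed by -0.02 (95% interval -0.13 to 0.09) at 37 °C, by -0.09 (-0.20 to 0.02) in HS and by -0.02 (-0.13 to 0.09) in HS+REC. For PITRM1 and YME1L1 these intervals leave room for a rise of at most 0.13 on the log2 scale. With library size alone as the scaling, PARL and PITRM1 also passed in HS, at -0.24 and -0.19 (adjusted p = 0.00414 and 0.00532).

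In CPM per kb, the fall of LONP1 was far larger than the rise of CLPP. LONP1 was lower by 64.8 CPM per kb with siLonp1 at 37 °C, 65.4 in HS and 61.8 in HS+REC, while CLPP was higher by 6.03, 6.56 and 8.38. The summed level of the 9 other genes was 199.0 ± 1.74 CPM per kb in Ctrl scramble and 191.6 ± 4.38 in Ctrl siLonp1 (SD, n = 3). Under HS the values were 190.4 ± 4.84 for scramble and 179.8 ± 4.85 for siLonp1, and after recovery 195.1 ± 4.19 and 184.5 ± 3.39. The sum was therefore lower with siLonp1 in each condition, and the libraries of the arms did not overlap in any of them. LONP1 made up 26.4% ± 0.373 of the summed level of all 10 in Ctrl scramble and 3.34% ± 0.343 in Ctrl siLonp1. These sums and shares are descriptions, and they depend on the transcript lengths used.

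**Figure D3:**
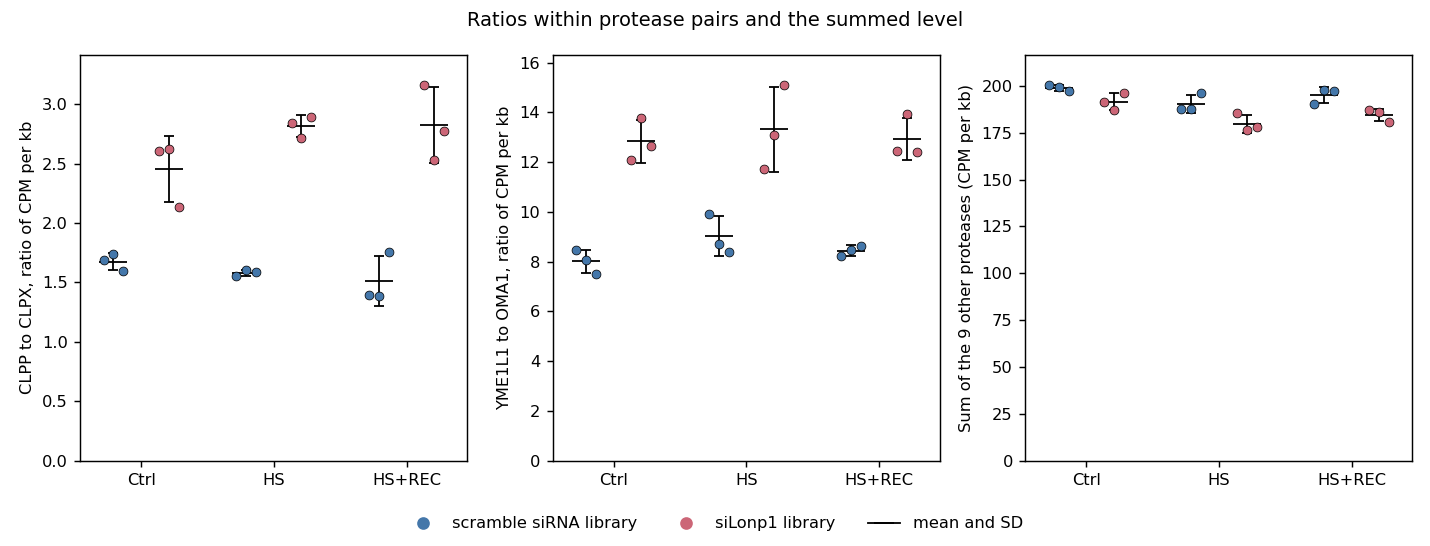
Ratio of CLPP to CLPX (left), ratio of YME1L1 to OMA1 (middle) and summed level of the 9 proteases other than LONP1 in CPM per kb (right), all from 0, in Ctrl, HS and HS+REC. Points are libraries (blue for scramble siRNA, red for siLonp1) and black lines are mean and SD of 3. Both ratios are higher with siLonp1, at 2.46 against 1.68 and 12.8 against 8.01 in Ctrl, and the sum is slightly lower, at 191.6 against 199.0.

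The second axis of the study was heat. In scramble cells HS lowered 2 of the 9 (AFG3L2 and SPG7) and raised none, against 17.3% of all genes lowered and 18.6% raised. In siLonp1 cells it lowered 3 (AFG3L2, SPG7 and CLPX) and raised none, against 22.1% lowered and 20.2% raised. From Ctrl to HS+REC, 3 of the 9 fell in scramble cells (AFG3L2, SPG7 and PITRM1) and none rose, against 20.5% of all genes lowered and 21.8% raised. In siLonp1 cells 4 fell (the same 3 and CLPX) and 1 rose (YME1L1), against 26.6% lowered and 24.6% raised. The shares of lowered proteases were thus close to or somewhat above those of all genes, and AFG3L2 and SPG7 were in each of the 4 counts. The count of 0 raised by HS from edgeR was also 0 at an unadjusted p under 0.05 in both arms, and that of 0 raised by HS+REC in scramble cells became 1 there (YME1L1). The share of all genes at that unadjusted limit is not given here. By DESeq2 none of the 9 rose in these 3 comparisons and 3 fell in each, with OMA1 (adjusted p = 0.0401) in addition in HS scramble. Of all 12832 genes, DESeq2 called 2389 raised and 2372 lowered in HS scramble, or 37.1% together. The counts were 2656 and 2839 in HS siLonp1 (42.8%), and 2704 and 2775 in HS+REC scramble (42.7%).

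AFG3L2 had the largest fall of the 9 in HS+REC, in both arms. It fell by 0.15 (log2, SE 0.05, adjusted p = 0.0259) in HS and by 0.38 (SE 0.05, adjusted p = 2.74e-06) in HS+REC in scramble cells. In siLonp1 cells it fell by 0.33 (SE 0.05, adjusted p = 1.8e-05) in HS and by 0.67 (SE 0.05, adjusted p = 2.66e-10) in HS+REC. The fall went on after the return to 37 °C, with a step from HS to HS+REC of -0.23 (adjusted p = 0.00196) in scramble and -0.34 (adjusted p = 2.12e-05) in siLonp1 cells. As a result the 18 libraries ran from 92.3 CPM in Ctrl scramble to 51.1 in HS+REC siLonp1. The arms differed by -0.29 (SE 0.07, adjusted p = 0.0458) in their response to HS+REC, a call that was lost without any of 15 single libraries (adjusted p from 0.0524 to 0.129). The HS call in scramble cells was lost without any of 5 single libraries (adjusted p from 0.0603 to 0.0848, values from -0.15 to -0.13).

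SPG7, its partner subunit, fell by 0.19 (log2, SE 0.07, adjusted p = 0.0337) in HS and by 0.29 (SE 0.07, adjusted p = 0.00188) in HS+REC in scramble cells, and by 0.32 (SE 0.07, adjusted p = 0.000688) and 0.43 (SE 0.07, adjusted p = 1.94e-05) in siLonp1 cells. In HS scramble it was at 36.6, 38.6 and 36.0 CPM, all below the 41.5 to 42.9 CPM of Ctrl scramble. That HS call in scramble cells was lost without any of 6 single libraries (adjusted p from 0.0551 to 0.152, values from -0.21 to -0.15).

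The remaining heat differences were small. CLPX fell by 0.23 in HS (log2, SE 0.06, adjusted p = 0.00202) and by 0.18 in HS+REC (SE 0.06, adjusted p = 0.0133) in siLonp1 cells, and in scramble cells the values were 0.00 (95% interval -0.11 to 0.12) and 0.01 (-0.10 to 0.13). The difference between arms did not pass for either, at -0.24 (SE 0.08, adjusted p = 0.142) and -0.19 (SE 0.08, adjusted p = 0.29). The HS+REC call of CLPX was lost without replicate 3 of Ctrl siLonp1 or of HS+REC siLonp1 (-0.12 and -0.15, adjusted p = 0.105 and 0.0576). PITRM1 fell by 0.16 in HS+REC in both arms (adjusted p = 0.0155 and 0.0123), from 43.7 to 44.8 CPM in Ctrl scramble to 38.9 to 40.1 in HS+REC scramble. Those calls were lost without replicate 3 of Ctrl scramble (-0.15, adjusted p = 0.0567) and without replicate 2 of Ctrl siLonp1 (-0.13, adjusted p = 0.0728). CLPP, OMA1, HTRA2 and PARL passed for neither HS nor HS+REC in either arm, with OMA1 in HS scramble just outside at -0.23 (SE 0.09, adjusted p = 0.0503). CLPP in HS+REC scramble was -0.24 (adjusted p = 0.0149) without replicate 3 of HS+REC scramble, and PARL there was 0.19 (adjusted p = 0.0394) without replicate 1.

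**Figure D4:**
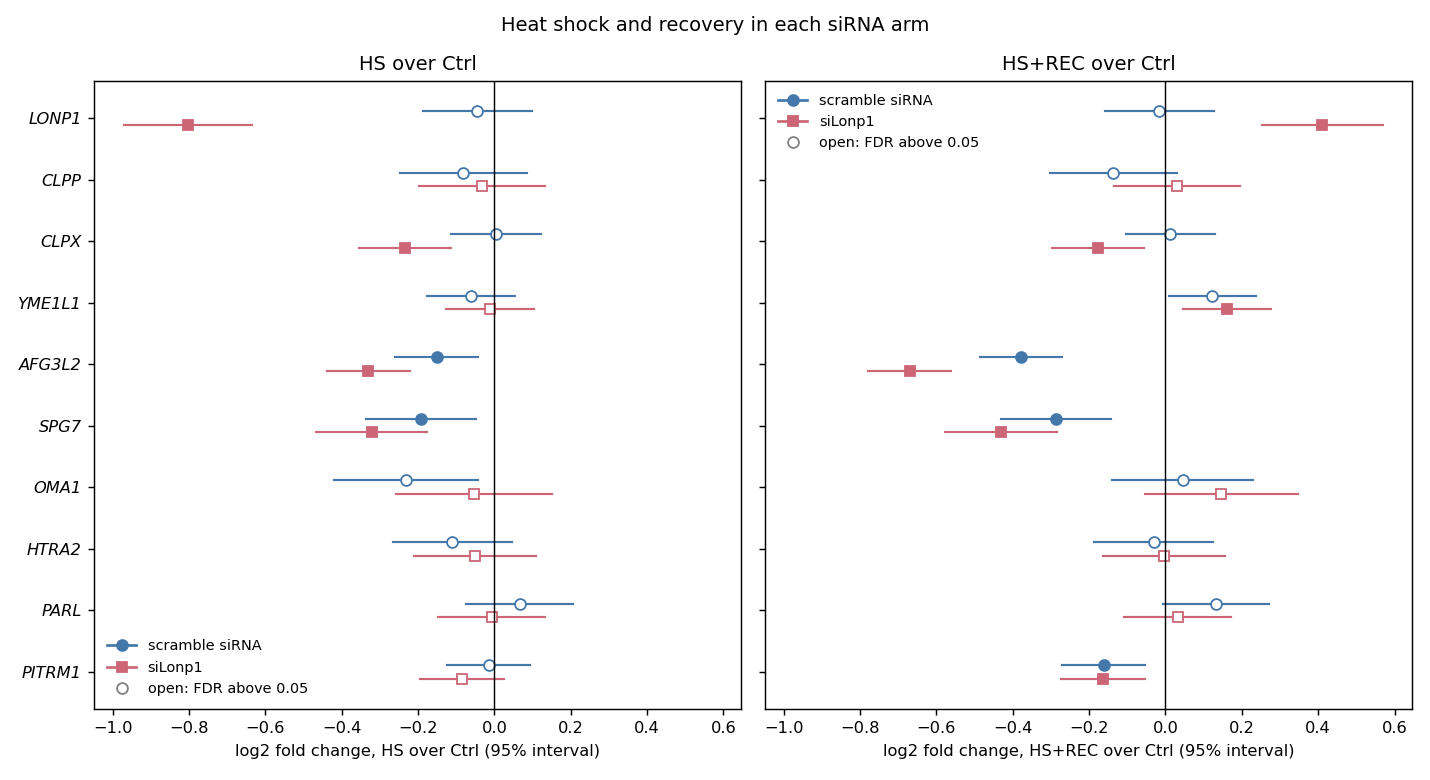
Difference of HS from Ctrl (left) and of HS+REC from Ctrl (right) as log2 fold change (x axis) for the 10 genes, with 95% intervals, in scramble siRNA (blue circles) and siLonp1 cells (red squares). Open symbols mark an adjusted p above 0.05. AFG3L2 and SPG7 lie left of 0 in both arms and both panels, and LONP1 moves in siLonp1 cells, by -0.80 in HS and 0.41 in HS+REC.

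From HS to HS+REC, 2 of the 9 rose (YME1L1 and OMA1) and 2 fell (AFG3L2 and PITRM1) in scramble cells, against 14.2% of all genes raised and 12.7% lowered. In siLonp1 cells YME1L1 rose and AFG3L2 fell, against 16.3% and 15.6%. YME1L1 was at 234.8, 221.8 and 233.0 CPM in HS scramble and at 259.0, 277.3 and 247.4 in HS+REC scramble, a rise of 0.18 (log2, SE 0.06, adjusted p = 0.0147). In siLonp1 cells it went from 236.4, 227.3 and 233.0 to 253.5, 277.4 and 254.3 CPM, a rise of 0.17 (SE 0.06, adjusted p = 0.0189). HS+REC libraries were above HS libraries in both arms. Against Ctrl, YME1L1 in HS+REC was 0.12 (adjusted p = 0.0795) in scramble and 0.16 (adjusted p = 0.018) in siLonp1 cells. Replicate 2 of HS+REC was the highest in both arms: without it the step was 0.14 (adjusted p = 0.0954) in scramble and 0.13 (adjusted p = 0.0972) in siLonp1 cells, and without replicate 2 of HS it was 0.16 in both (adjusted p = 0.0778 and 0.0743). The siLonp1 value against Ctrl was lost without 3 single libraries (0.12 to 0.15, adjusted p from 0.0538 to 0.0931). With library size alone as the scaling, none of the YME1L1 calls passed.

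OMA1 rose by 0.28 (log2, SE 0.09, adjusted p = 0.0254) from HS to HS+REC in scramble cells, from 10.5, 11.3 and 12.3 to 14.0, 14.6 and 12.7 CPM, a call lost without any of 4 single libraries (0.22 to 0.27, adjusted p from 0.0634 to 0.138). In siLonp1 cells the step of OMA1 was 0.20 (SE 0.10, adjusted p = 0.127), and 0.31 (adjusted p = 0.0261) without replicate 1 of HS siLonp1. The PITRM1 step in scramble cells, -0.15 (SE 0.05, adjusted p = 0.0404), was lost without any of 9 single libraries (adjusted p from 0.0517 to 0.108).

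Whether the arms answered heat differently was tested for each gene. Of the 9, none passed for HS, where 1.87% of all genes did, and none for the step from HS to HS+REC, where 1.38% did. At an unadjusted p under 0.05 edgeR gave 2 for HS (CLPX and AFG3L2, both negative) and 0 for the step. The share of all genes at that limit is not given here. DESeq2 called 0 of the 9 for each, beside 3.43% of all genes for HS and 2.33% for the step. For HS+REC 1 passed, AFG3L2 as given above, against 1.58% of all genes. The 95% intervals of these differences reached from -0.45 to -0.14 for AFG3L2 in HS+REC, from -0.41 to -0.07 for CLPX in HS and from -0.19 to 0.28 for CLPP in HS.

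Genes that work beside the proteases were counted from lists written with earlier results of these data known. Of 10 other mitochondrial processing peptidases, siLonp1 raised 1 and lowered 5 at 37 °C, with 1 and 4 in HS and 1 and 7 in HS+REC. For this list and the next 4, the shares of all genes raised and lowered by siLonp1 are those given above: 26.3% and 22.9% at 37 °C, 28.1% and 26.7% in HS, and 26.8% and 27.3% in HS+REC. The median of the peptidases was -0.21 (log2) at 37 °C, -0.08 in HS and -0.28 in HS+REC, against 0.01, 0.00 and 0.00 for all genes. MIPEP, the intermediate peptidase that trims imported precursors, fell by 0.39 (adjusted p = 3.08e-05), 0.49 (adjusted p = 1.36e-06) and 0.60 (adjusted p = 6.5e-08) in Ctrl, HS and HS+REC. ATP23, an inner membrane metalloprotease, fell by 0.47 (adjusted p = 0.000776), 0.44 (adjusted p = 0.00131) and 0.50 (adjusted p = 0.000347). LACTB, a serine protease-like protein of the intermembrane space, was the 1 that rose, by 0.59 (adjusted p = 2.38e-06), 0.54 (adjusted p = 1.02e-05) and 0.37 (adjusted p = 0.000628). With heat, XPNPEP3, an aminopeptidase that trims N-termini after import, rose by 1.14 (adjusted p = 2.46e-11) in HS+REC scramble and by 0.93 (adjusted p = 9.15e-10) in HS+REC siLonp1 cells. PMPCA, a subunit of the main processing peptidase, fell by 0.32 (adjusted p = 8.08e-05) and 0.51 (adjusted p = 1.2e-07) in the same comparisons.

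Of 10 partners and regulators of the proteases, siLonp1 raised 2 and lowered 3 at 37 °C, raised 3 and lowered 2 in HS, and raised 3 and lowered 3 in HS+REC, with medians of -0.16, -0.03 and -0.10 (log2). Against the 26.3% raised and 22.9% lowered of all genes at 37 °C, and 28.1% and 26.7% in HS, these counts were near the background. HAX1, a partner of HTRA2 and PARL, rose by 0.24 (log2, adjusted p = 0.00292), 0.52 (adjusted p = 4.76e-07) and 0.38 (adjusted p = 3.03e-05). GHITM, an inner membrane protein tied to the AFG3L2 complex, rose by 0.15 (adjusted p = 0.0383), 0.28 (adjusted p = 0.000361) and 0.23 (adjusted p = 0.00201). PHB1, a subunit of the prohibitin ring around that complex, was at -0.31 (adjusted p = 0.00234), -0.07 (adjusted p = 0.439) and -0.24 (adjusted p = 0.0113). With heat, USP30, a deubiquitinase of the outer membrane, rose by 0.48 (adjusted p = 4.99e-05) in HS+REC scramble and by 0.39 (adjusted p = 0.000369) in HS+REC siLonp1 cells, while in HS it was at -0.11 (adjusted p = 0.358) in scramble and fell by 0.25 (adjusted p = 0.0216) in siLonp1 cells. MAIP1, a matrix protein that binds the AFG3L2 protease, was in HS+REC at 0.07 (adjusted p = 0.459) in scramble cells and rose by 0.19 (adjusted p = 0.0378) in siLonp1 cells. With siLonp1 it fell by 0.20 (adjusted p = 0.0295) at 37 °C and by 0.18 (adjusted p = 0.0421) in HS, and was at -0.08 (adjusted p = 0.356) in HS+REC.

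Of 16 genes whose proteins are known substrates of these proteases, 15 were tested. siLonp1 raised 3 and lowered 2 at 37 °C, raised 6 and lowered 1 in HS, and raised 5 and lowered 2 in HS+REC, with medians of 0.03, 0.09 and 0.05 (log2). At 37 °C both counts were below the 26.3% raised and 22.9% lowered of all genes, and in HS the share raised was above 28.1%. PINK1, the kinase that PARL cuts, rose by 0.43 (adjusted p = 2.96e-05), 0.48 (adjusted p = 7.24e-06) and 0.43 (adjusted p = 2.67e-05). DELE1, which OMA1 cuts and which relays mitochondrial stress to the cytosol, rose by 0.33 (adjusted p = 0.000145), 0.37 (adjusted p = 3.05e-05) and 0.36 (adjusted p = 4.14e-05), in the conditions in which OMA1 itself was lower. PDK4, a kinase of the pyruvate dehydrogenase complex, was scarce, at 16 to 19 counts per library in Ctrl scramble and 6 to 10 in Ctrl siLonp1. In scramble cells it was higher by 1.59 in HS than in Ctrl. Its mean was above 1 CPM only in heated groups (1.19 in HS scramble, 2.30 and 1.21 in HS+REC scramble and siLonp1). PDK4 thus passed the low-count filter through heated cells, and its rise with heat was not independent of the filter. With siLonp1 PDK4 fell by 1.04 at 37 °C (adjusted p = 0.0473), by 0.66 in HS (adjusted p = 0.0375) and by 0.93 in HS+REC (adjusted p = 0.000987). PGAM5, a phosphatase that PARL cuts, rose in HS+REC by 0.51 (adjusted p = 2.79e-07) in scramble and 0.52 (adjusted p = 1.6e-07) in siLonp1 cells. ALAS1, the first enzyme of haem synthesis and a LONP1 substrate, rose there by 0.35 (adjusted p = 0.000252) and 0.44 (adjusted p = 1.28e-05).

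Of 13 relatives of the proteases, in the main outside the mitochondrion, 8 were tested, and siLonp1 raised 1 and lowered 1 at 37 °C, with 1 and 4 in both HS and HS+REC. The shares of all genes were 26.3% raised and 22.9% lowered at 37 °C, and 26.7% and 27.3% lowered in HS and HS+REC. The medians were -0.01, -0.09 and -0.14 (log2). AFG3L1P, a transcribed pseudogene of the AFG3L2 family whose reads may be shared with it, was at -0.50 (log2, adjusted p = 2.34e-05) at 37 °C. HTRA1, a secreted relative of HTRA2, rose by 0.27 (adjusted p = 0.00239). LONP2, the LON protease of peroxisomes, was lowered by HS, by 0.24 (adjusted p = 0.00376) in scramble and 0.30 (adjusted p = 0.000346) in siLonp1 cells, and LONRF1, which carries a LON-type domain, fell by 0.60 (adjusted p = 2.17e-05) and 1.003 (adjusted p = 1.23e-08). The siLonp1 effect on LONRF1 was -0.04 (adjusted p = 0.739) at 37 °C, -0.44 (adjusted p = 0.000673) in HS and -0.30 (adjusted p = 0.0119) in HS+REC. LONRF3 passed in HS+REC, at -0.42 (adjusted p = 0.00109) and -0.37 (adjusted p = 0.00304).

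Of 11 genes of the mitochondrial stress response, siLonp1 raised 4 and lowered 3 at 37 °C, raised 5 and lowered 1 in HS, and raised 5 and lowered 2 in HS+REC, with medians of -0.04, 0.18 and 0.20 (log2). At 37 °C these counts were close to the 26.3% raised and 22.9% lowered of all genes, and in the heated groups the raised share was above the 28.1% and 26.8% of all genes. ASNS, asparagine synthetase, rose by 0.92 (adjusted p = 7.55e-07), 1.39 (adjusted p = 1.77e-09) and 1.05 (adjusted p = 8.62e-08). GDF15, a secreted stress hormone, rose by 0.52 (adjusted p = 8.06e-05), 0.32 (adjusted p = 0.00613) and 0.48 (adjusted p = 0.000147). FGF21, another stress hormone, had 0 to 3 counts per library in Ctrl scramble and 4 to 5 in Ctrl siLonp1. In HS+REC it had 33 to 38 counts against 71 to 101, a difference of 1.33 (log2). Its mean was above 1 CPM only in HS+REC siLonp1 (2.05, against 0.82 in HS+REC scramble). FGF21 thus passed the low-count filter through the group where it was highest. It is among the genes counted as raised, and that difference was not independent of the filter. HSPD1, the mitochondrial chaperonin HSP60, rose with heat by 0.45 (adjusted p = 6.09e-06) in HS and 1.34 (adjusted p = 6.01e-14) in HS+REC in scramble cells, and by 0.66 (adjusted p = 1.29e-08) and 1.69 (adjusted p = 6.68e-16) in siLonp1 cells. DDIT3, the stress transcription factor CHOP, rose by 1.02 (adjusted p = 2.58e-08) in HS and 1.64 (adjusted p = 3.4e-12) in HS+REC in scramble cells. Unlike ASNS, GDF15 and FGF21, DDIT3 had a lower mean with siLonp1 in each condition. Unheated scramble cells had a mean of 9.37 CPM and unheated siLonp1 cells 6.78. The means after heat were 19.0 (scramble) and 18.6 (siLonp1), and after recovery 29.2 (scramble) and 24.9 (siLonp1). The test of these DDIT3 differences is not given here.

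**Figure D5:**
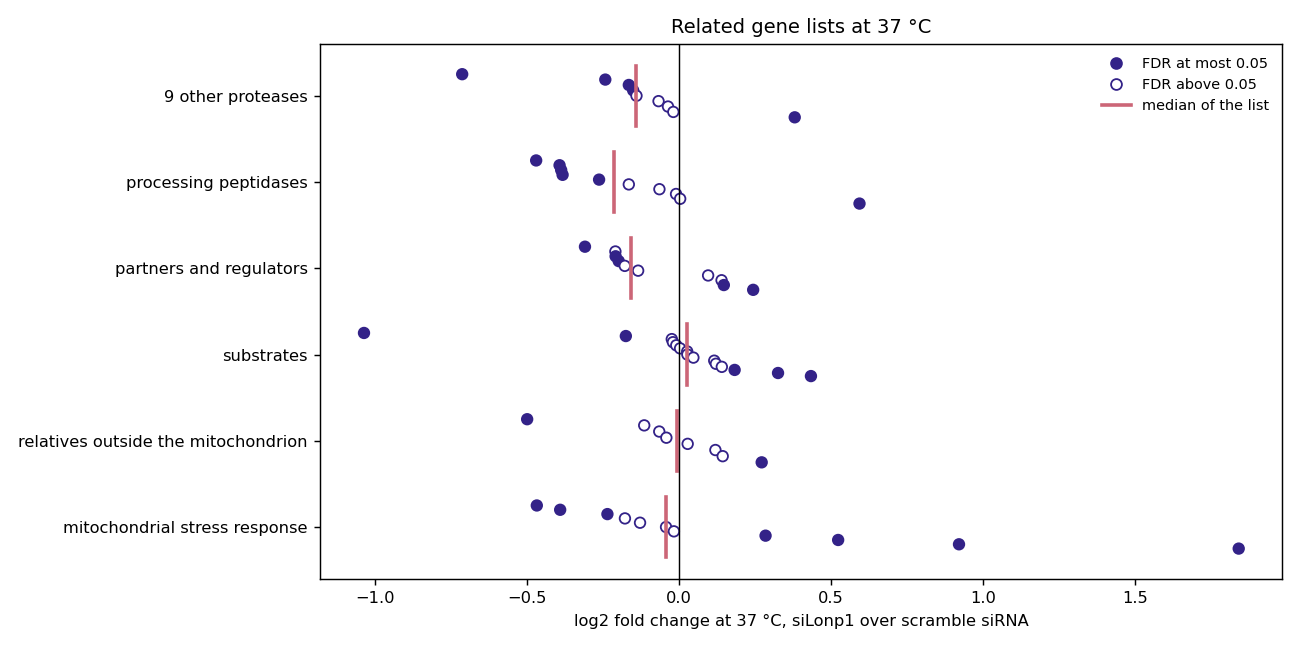
Difference of siLonp1 from scramble siRNA at 37 °C (log2 fold change, x axis) for each tested gene of 6 lists. Filled points have an adjusted p of at most 0.05 and red lines are list medians. The 9 other proteases and the processing peptidases lie mostly left of 0, with medians of -0.14 and -0.21, each with 1 member raised.

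Over the 18 libraries, the genes whose log2 level followed LONP1 most closely were AGR2 (Pearson's r = 0.991), CDH17 (0.987), COL4A2 (0.981), SVEP1 (0.980) and IL1R2 (0.977). AGR2 was at 15.1 CPM in Ctrl scramble and 2.68 in Ctrl siLonp1, and, like LONP1, it was lower in HS siLonp1 (1.90) than in HS+REC siLonp1 (3.55). Unlike LONP1 (214.0 and 218.4 CPM), AGR2 also had a lower mean in HS scramble (13.5) than in HS+REC scramble (17.0). Among the other proteases, OMA1 had r = 0.919, CLPX 0.891 and HTRA2 0.803, whereas CLPP had -0.879, YME1L1 0.116 and PITRM1 0.237. LONP1 takes 2 separate ranges, one in each arm, so these values mainly describe how far a gene differs between the arms, and the points share their siRNA treatment.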

How the data were processed

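The authors aligned paired-end reads of stranded mRNA libraries to hg38 with STAR 2.7.3a and counted UCSC genes with featureCounts in R 3.6.3. The deposited values are raw counts per gene symbol, with no normalization. Strand setting, treatment of shared reads and annotation release are not given in the sources used here. The methods describe 3 independent biological replicates.

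All 18 columns matched a label. The 12832 genes that exceeded 1 CPM in 3 or more libraries were analysed with edgeR 4.0.16 under R 4.3.3 (TMM factors from 0.934 to 1.06, quasi-likelihood test, 1 mean per group, 12 contrasts). The adjusted p is Benjamini-Hochberg over all genes of a contrast, and a gene was called at 0.05 or below. The SE is the size of the difference over the square root of F, and intervals are 95%. The authors' fold limit of 2 was an alternative. CPM are scaled by TMM. Length is that of the Ensembl canonical transcript in GENCODE v44. The common biological coefficient of variation was 0.0658. Replicates differed by more than counting error (chi-square per degree of freedom from 3.48 to 25.8), so none was taken as a duplicate. Counting intervals were not used.

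On simulated counts for the 12832 genes, 85 of 100 changes of 0.5 (log2) and 100 of 100 of 1.5 were recovered for the siLonp1 effect at 37 °C, with 10 false calls. For the interaction of siLonp1 and HS these were 55 and 100 of 100, with 6 false calls.

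Members, lists, motifs and tests were chosen with earlier results of these data known. Named from each list were up to 3 genes with the largest called difference over the siLonp1 comparisons and up to 3 over the HS and HS+REC comparisons with Ctrl, beside the 10 members, overlapping genes, HSPA1A and DNAJB1 as heat checks, and the 5 genes most correlated with LONP1. EPCAM, KRT8, CDX1, KRT20, CDX2, CDH1 and LUM were named after their values were seen. DNAJB1 rose by 4.47 (log2) in HS scramble and by 4.52 in HS siLonp1 cells. Alternatives were RLE factors, library size only, no filter, CPM above 1 in all 18 libraries, DESeq2 1.42.0, only the groups compared, a replicate block, a limit of 0.01, fold above 2 and each library left out.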

Additional observations from a re-analysis of the deposited data

Results flagged for a closer look

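Differences between the arms in their response to heat passed the test of the difference itself in 7 of 240 tests over the 10 proteases and the listed genes (80 genes in all), 3 of them of LONP1, and no cause was tested for any. Over all genes tested, 1.87% passed for HS, 1.58% for HS+REC and 1.38% for the step. For LONP1 the difference was -0.76 (log2, adjusted p = 0.000468) for HS, 0.43 (adjusted p = 0.0321) for HS+REC and 1.18 (adjusted p = 1.18e-06) for the step from HS to HS+REC, where siLonp1 cells moved and scramble cells did not detectably. The call for HS+REC was lost in 13 of 27 alternatives, among them the replicate block (0.43, adjusted p = 0.0557) and only the groups compared (0.42, adjusted p = 0.0727). For AFG3L2 it was -0.29 (adjusted p = 0.0458) for HS+REC, a call lost in 22 of 27 alternatives. ATF4, the transcription factor of the integrated stress response, differed by 0.48 (adjusted p = 0.000907) for HS: it rose by 0.59 in siLonp1 cells and was at 0.12 in scramble cells. HSPD1 differed by 0.35 (adjusted p = 0.0468) and TRIB3, a pseudokinase induced by stress, by 0.50 (adjusted p = 0.00872) for HS+REC, with larger rises in siLonp1 cells (1.69 against 1.34, and 1.499 against 0.996). ATF4 and TRIB3 were named here because they passed. With 3 libraries in a group no test for a single outlying library was made.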

How the results depend on the processing

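Over 120 pairs of a protease and a comparison and 27 alternatives, 3040 of 3240 values stayed on their side of the limit, 176 lost a call and 24 gained one. The sign changed in 91 values from 29 pairs, all of them pairs that were not called and differed by at most 0.08 (log2), and in 0 values from a pair that was called. The number of the 9 proteases called was, in the order siLonp1 at 37 °C, in HS and in HS+REC, HS in scramble and siLonp1, HS+REC in scramble and siLonp1, and the step in scramble and siLonp1, 5, 6, 7, 2, 3, 3, 5, 4 and 2, with 1 for the interaction with HS+REC. With the fold limit of 2 all of these became 0, beside 4.17%, 4.17%, 4.18%, 3.3%, 4.57%, 4.46%, 5.71%, 1.9%, 2.57% and 0.109% of all genes. At 0.01 they were 2 for siLonp1 at 37 °C, 0 for HS scramble, 2 for HS+REC siLonp1, 1 for the step in scramble and in siLonp1, and 0 for the interaction with HS+REC, beside 36.9%, 24.5%, 40%, 18.2%, 23% and 0.444% of all genes. With no filter they were 3, 0 for HS scramble, 1 for the step in siLonp1 and 0 for that interaction, beside 31.6%, 23%, 21.4% and 1.86% of all genes. With CPM above 1 in all libraries HS scramble gave 0, beside 36%. With only the groups compared, HS+REC siLonp1 gave 3 and the step 1 and 1, beside 48.5%, 21.1% and 28.6%. With library size only the step gave 2 and 1, beside 27.9% and 33.1%. The interaction with HS+REC also gave 0 with RLE factors, library size only, only the groups compared and the replicate block, beside 1.55%, 1.54%, 1.12% and 1.32%. For these counts the cause was not tested, other than that stricter limits pass fewer genes by construction.

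Leaving out 1 library gave 2 to 5 for siLonp1 at 37 °C (2 without replicate 2 of Ctrl siLonp1), 5 to 6 in HS, 5 to 7 in HS+REC, 0 to 3 for HS scramble, 3 for HS siLonp1, 2 to 5 for HS+REC scramble (2 without replicate 3 of Ctrl scramble, 5 without replicate 3 of HS+REC scramble), 3 to 5 for HS+REC siLonp1, 1 to 4 and 1 to 3 for the step, and 0 to 1 for the interaction with HS+REC. The shares of all genes called in these fits are not given here, and a fit with fewer libraries changes the calls of every gene. These counts thus describe how firm the calls were and are no result about the proteases. LONP1 at 37 °C stayed between -3.51 and -3.40 (log2).

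Same-numbered libraries did not deviate together (median correlation of deviations -0.0222, above 0.1 in 10 of 45 pairs), so the numbers were not read as pairs. With the replicate block the count for the interaction with HS+REC was 0 in place of 1, and 6 of 18 libraries lay closest to another of their own number. Depth of at least 30815860 counts left OMA1, the lowest of the 10, at 6.85 CPM or more.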
